A study of Mus musculus with 16 samples.

Results

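The response of a mouse kidney cell line to doxycycline (DOX), which induces loss of Pkd2 in it, was compared between passage 7 (P7) and passage 4 (P4). For each gene the log2 change with DOX at P7 had the log2 change with DOX at P4 subtracted from it, with replicate set (replicates 1 and 2, or 3 and 4) as a term. All 16 libraries of the series entered this comparison, and 821 of 15316 tested genes (5.36%) had a response that differed between the passages. The response was higher at P7 for 339 genes (2.21%) and lower at P7 for 482 (3.15%). "Higher" covers a larger rise, a smaller fall or a rise in place of a fall. All adjusted p-values are from the quasi-likelihood test in edgeR, adjusted by the Benjamini-Hochberg method over the 15316 genes, and a gene is called below 0.05.

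The cells were an inner medullary collecting duct line, the epithelium of the last stretch of the kidney tubule. The 4 groups of 4 libraries were P7 cells with DOX, P7 cells without DOX, P4 cells with DOX and P4 cells without DOX. All were kept on filters for 10 days, and DOX was given at 2 ug/mL for 6 days. The titles name Pkd2 knockout cells for every library, while the genotype label is wild type without DOX and induced knockout with it, so an effect of DOX and an effect of the knockout cannot be told apart. The promoter that drives the recombination and whether the line is 1 clone are not given in the sources used here. No label says that replicates were separate cultures, so p-values measure the spread between these libraries, which may be technical.

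Libraries held 9937504 to 17188295 counts, and mitochondrially encoded genes took 1.09% to 3.00% of them. Replicates 1 and 2 stood apart from replicates 3 and 4 in every group: correlations of deviations from the group means were 0.222 to 0.500 within a set and -0.442 to -0.219 between sets. The TPM table deposited beside the counts carries other headers on 12 of 16 columns and was not used. In the count columns Pkd2 was low where DOX was labelled, while no gene gives such a check of the passage labels. Of the principal cell markers, Aqp2 had no count in any library and Aqp3, Aqp4, Fxyd4 and Kcnj1 were near 0. Scnn1a and Tfcp2l1 had means of 151 and 329 CPM (counts scaled to library size). Means were 10.6 for Hsd11b2, 6.9 for Gata3, 1.62 for Scnn1b, 1.15 for Scnn1g and 0.993 for Avpr2. The summed markers of collecting duct epithelium lay between 5900 and 8500 CPM in every library. Most of that sum was keratins (Krt8 1780, Krt7 1600, Krt18 1340 and Krt19 859 CPM), while Elf5 and Slc14a2 were near 0. The line thus carried epithelial markers, with most principal cell markers low and no count of Aqp2, the vasopressin-regulated water channel.

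Polycystin-2, the product of Pkd2, is an ion channel found in cilia and in the endoplasmic reticulum, and its mutation causes autosomal dominant polycystic kidney disease. Several of the gene groups below belong to known programmes. ATF4 is the transcription factor of the integrated stress response: it is translated when eIF2 alpha is phosphorylated, and it drives genes of amino acid synthesis, amino acid uptake and tRNA charging through composite C/EBP-ATF sites. Interferon-stimulated genes are switched on through factors such as the IRFs, which bind paired GAAA elements, and they encode GTPases, RNA sensors and proteins of antigen presentation.

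ATF4 targets and interferon-stimulated genes were the lists with the most calls in each direction. The promoters of 8 called genes are therefore shown, with C/EBP-ATF or IRF elements in capitals. These genes were picked among those that hold an element, so they do not show how common it is. Asns and Atf3 are on the list of ATF4 targets, while Gars and Aars are on that of aminoacyl-tRNA synthetases. Gbp2, Igtp, Irgm1 and Ifit3 are on the interferon list. Sequences are from RefSeq (GRCm38.p6), run 5′ to 3′ along the gene's strand, and show up to 30 bases on either side of the capitals, stopping short of the start site. The motifs searched on both strands in the 250 bases before to 50 bases after the start were TGATGNAA for C/EBP-ATF and GAAANNGAAA for IRF.
Asns, chr6:7693210-7693262, minus strand: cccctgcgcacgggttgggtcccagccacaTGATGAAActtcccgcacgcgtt
Gars, chr6:55037941-55038000, plus strand: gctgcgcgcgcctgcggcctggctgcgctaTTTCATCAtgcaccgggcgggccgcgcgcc
Atf3, chr1:191183406-191183473, minus strand: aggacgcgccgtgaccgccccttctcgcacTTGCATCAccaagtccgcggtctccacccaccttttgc
Aars, chr8:111033700-111033767, plus strand: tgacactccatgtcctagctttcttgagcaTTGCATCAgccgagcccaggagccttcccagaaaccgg
Gbp2, chr3:142620574-142620643, plus strand: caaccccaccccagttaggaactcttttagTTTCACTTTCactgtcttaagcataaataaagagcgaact
Igtp, chr11:58199492-58199555, plus strand: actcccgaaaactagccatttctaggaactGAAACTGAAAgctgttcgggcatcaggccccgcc
Irgm1, chr11:48871421-48871480, minus strand: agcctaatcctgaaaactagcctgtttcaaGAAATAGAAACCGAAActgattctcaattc
Ifit3, chr19:34583343-34583446, plus strand: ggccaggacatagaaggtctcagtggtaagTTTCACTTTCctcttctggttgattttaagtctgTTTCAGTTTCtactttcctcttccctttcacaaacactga

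In Irgm1 the capitals hold 2 overlapping IRF matches, and in Ifit3 there are 2 separate ones. The C/EBP-ATF motif was in the window of 18 of 254 genes called higher at P7 (7.09%) and 7 of 340 called lower (2.06%), against 2.69% of 10653 tested genes with a promoter entry and 4.51% of all 27025 entries. The IRF motif was in the window of 34 of 340 genes called lower at P7 (10.0%) and 7 of 254 called higher (2.76%), against 3.61% of the tested genes and 3.99% of all entries. Among aminoacyl-tRNA synthetases with an entry, 5 of 6 called genes and 0 of 6 others held the C/EBP-ATF motif. Within the list of ATF4 targets, however, 4 of 15 called and 5 of 17 other members held it, and within the interferon list 10 of 15 called and 11 of 19 other members held the IRF motif. These matches are letters in a window and not binding sites.

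Pkd2 itself had 47.6, 52.9, 60.3 and 65.9 CPM at P7 with DOX and 187, 185, 184 and 185 CPM at P7 without. At P4 it had 52.1, 47.8, 53.6 and 57.4 CPM with DOX and 145, 142, 135 and 138 CPM without. The DOX groups of both passages overlapped, while every P7 library without DOX lay above every P4 library without DOX. Pkd2 fell by 1.71 on the log2 scale at P7 and by 1.41 at P4. The difference of the responses was -0.30 (SE 0.09; edgeR adjusted p = 0.055), just short of the threshold. Of the alternatives, 6 brought it below 0.05, and they are given with the processing results. So did leaving out P7 DOX replicate 4 (edgeR adjusted p = 0.012), P4 DOX replicate 2 (0.036) or P4 no DOX replicate 1 (0.048). The highest value on leaving out 1 library was 0.13, without P7 DOX replicate 1. Pkd1, the partner of Pkd2, had a difference of -0.20 (SE 0.11; edgeR adjusted p = 0.31).

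The 821 calls fell into 6 patterns, described here by the signs of the 2 fitted responses. Of the 339 genes with a higher response at P7, 175 rose more at P7 than at P4 (113 of them called for DOX at both passages and 62 at P7 alone). Another 114 had a positive estimate at P7 and a negative one at P4, and 18 of these were called at both passages. The other 50 had a negative estimate at both, smaller at P7. Of the 482 genes with a lower response at P7, 230 had a negative estimate at P7 and a positive one at P4, of which 45 were called at both. A further 128 fell more at P7, and 124 rose less at P7. The median size of the difference over the 821 genes was 0.44 on the log2 scale, and 91 genes differed at least 2-fold (31 higher and 60 lower at P7). For scale, DOX at P7 was called higher for 15.7% and lower for 17.1% of tested genes, and DOX at P4 for 13.9% and 14.5%. Without the P4 no DOX replicate 1 library 203 genes were called higher and 324 lower, and without the set term 79 and 104.

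**Figure D1:**
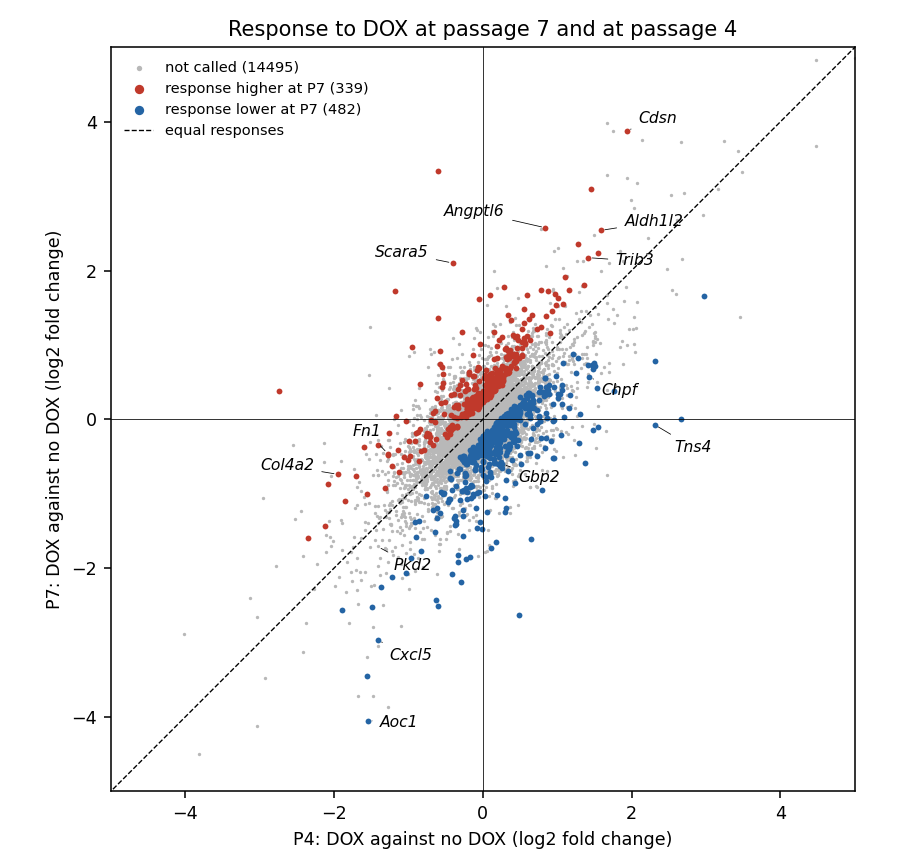
Each point is a tested gene, with its log2 fold change for DOX against no DOX at P7 on the vertical axis and at P4 on the horizontal axis, both from the same fit of 16 libraries. Red points (339) had a higher and blue points (482) a lower response at P7, grey points were not called, the dashed line marks equal responses, and 5 genes that were not called lie outside the plotted range.

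Genes of the ATF4 programme formed the list with the most members in the higher direction. Of 35 tested members, 17 had a higher response at P7 and 0 a lower one, against 2.21% and 3.15% of all genes. These 2 shares are the background of every list below. The median response was 0.79 at P7 and 0.48 at P4 on the log2 scale, and the median difference was 0.29, against -0.002 over all tested genes. By set, the median difference was 0.46 in replicates 1 and 2 and 0.245 in replicates 3 and 4. It was 1.07 and 0.47 for Trib3 and 0.63 and 0.26 for Asns, but 0.47 and 0.48 for Ddit3. The gap between sets was called for 1 member, Chac1. The list rose at both passages (32 members called at P7 and 27 at P4), so the difference was one of size. The count was 11 with replicate number as a block and also 11 without the P7 DOX replicate 4, P4 DOX replicate 1, P4 no DOX replicate 1 or P4 no DOX replicate 2 library. It was 5 without the set term.

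Trib3, a pseudokinase induced by ATF4 that damps its signal, had 203, 201, 248 and 254 CPM at P7 with DOX and 41.5, 45.6, 58.6 and 55.9 CPM without. Its P4 libraries had 92.5, 83.8, 167 and 144 CPM with DOX and 38.7, 40.6, 47.4 and 51.5 CPM without. Every P7 library with DOX was above every P4 library with DOX, and the groups without DOX overlapped. Its response was 2.17 at P7 and 1.42 at P4, a difference of 0.75 (SE 0.13; edgeR adjusted p = 0.0024).

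Asns, asparagine synthetase, had 398, 399, 433 and 427 CPM at P7 with DOX and 189, 189, 234 and 208 CPM without. At P4 it had 278, 261, 358 and 334 CPM with DOX and 201, 194, 212 and 216 CPM without. The DOX groups of the 2 passages did not overlap and those without DOX did. Its response was 1.02 at P7 and 0.57 at P4 (difference 0.45, SE 0.07; edgeR adjusted p = 0.00025). The transcription factor Atf3 showed a response at P7 alone: 45.2, 41.7, 104 and 88.1 CPM at P7 with DOX against 26.8, 27.4, 67.7 and 54.0 CPM without, and 30.3, 25.9, 56.0 and 61.8 CPM at P4 with DOX against 28.6, 28.8, 47.9 and 61.5 CPM without. Replicates 3 and 4 were above replicates 1 and 2 in every group, so the groups overlapped, and the difference was 0.71 in replicates 1 and 2 and 0.54 in replicates 3 and 4. Over all libraries it was 0.62 (SE 0.12; edgeR adjusted p = 0.0036).

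Of the mitochondrial one-carbon enzymes on the list, Aldh1l2, Mthfd2 and Shmt2 were called and Mthfd1l, which releases formate, was not (0.25; edgeR adjusted p = 0.14). Aldh1l2, which oxidises 10-formyltetrahydrofolate in mitochondria, had 190, 212, 260 and 253 CPM at P7 with DOX and 33.4, 33.6, 45.9 and 44.7 CPM without. Its P4 libraries had 49.2, 55.3, 81.4 and 67.8 CPM with DOX and 21.4, 21.1, 18.7 and 22.3 CPM without. Neither the DOX groups nor those without DOX overlapped between passages, and the difference of responses was 0.95 (SE 0.13; edgeR adjusted p = 0.00016). Mthfd2, a dehydrogenase and cyclohydrolase of the same pathway, responded by 1.06 at P7 and 0.48 at P4 (difference 0.58, SE 0.08; edgeR adjusted p = 1.5e-05).

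Phgdh, the first enzyme of serine synthesis, was not called (0.19; edgeR adjusted p = 0.27), while other enzymes of amino acid synthesis on the list were higher at P7. The proline enzymes Aldh18a1 and Pycr1 had differences of 0.57 and 0.68, the serine phosphatase Psph of 0.66, and the mitochondrial alanine transaminase Gpt2 of 0.72. Ppp1r15a, the phosphatase subunit that reverses eIF2 alpha phosphorylation, had a difference of 0.48 (edgeR adjusted p = 0.0039). Stc2, a secreted glycoprotein, had one of 0.58 and was called close to the threshold (edgeR adjusted p = 0.049). Its p under the alternatives is not given here. Other members with smaller differences or higher p included Atf4 itself (0.24), Psat1 of serine synthesis (0.43), Shmt2 of one-carbon exchange (0.26) and Ddit3, which encodes CHOP (0.46). These 4 were called (edgeR adjusted p = 0.034, 0.036, 0.044 and 0.049), but with replicate number as a block their p was 0.052, 0.062, 0.061 and 0.084. Over all alternatives it ranged from 0.0033 to 0.62 for Atf4, 9.8e-08 to 0.12 for Psat1, 0.0033 to 0.59 for Shmt2 and 9e-06 to 0.12 for Ddit3. Of the 16 fits that left out 1 library, 11 lost the call of Atf4, 8 that of Psat1, 11 that of Shmt2 and 12 that of Ddit3, with edgeR adjusted p of up to 0.082, 0.093, 0.11 and 0.12. Exons of Ddit3 overlap those of Mars on the other strand, and whether counting used strand is not given. Chac1, a glutathione-degrading enzyme, was not called (0.46; edgeR adjusted p = 0.20). Its difference was 0.89 in replicates 1 and 2 and 0.06 in replicates 3 and 4. Slc38a2 (-0.02) and Vldlr (-0.20) were the 2 members with a negative estimate, and neither was called.

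Amino acid transporters gave 3 higher and 0 lower of 21 tested (14.3% higher, against 2.21% of all tested genes), all 3 of them uptake carriers. Slc7a3, a carrier of cationic amino acids that is also on the ATF4 list, had 34.4, 33.0, 38.2 and 37.3 CPM at P7 with DOX and 6.80, 6.80, 6.90 and 7.12 CPM without. At P4 it had 21.3, 19.6, 29.6 and 28.3 CPM with DOX and 9.54, 8.65, 10.9 and 11.3 CPM without. P7 cells thus had the lower level without DOX and the higher level with it, with no overlap between passages in either state. The difference was 1.08 (SE 0.13; edgeR adjusted p = 6.2e-06). The neutral amino acid carrier Slc1a4 responded by 0.83 at P7 and 0.19 at P4 (difference 0.64, SE 0.08; edgeR adjusted p = 5.2e-06), and the glutamine carrier Slc1a5 by 1.54 and 0.99 (difference 0.55, SE 0.09; edgeR adjusted p = 0.00036).

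Cth, cystathionine gamma-lyase, which makes cysteine from cystathionine, had 93.5, 88.5, 111 and 110 CPM at P7 with DOX and 29.3, 27.3, 31.3 and 34.5 CPM without. Its P4 libraries had 38.1, 44.1, 55.9 and 59.2 CPM with DOX and 26.4, 25.1, 27.8 and 27.0 CPM without. The passages did not overlap with DOX and overlapped without it. The difference was 0.84 (SE 0.10; edgeR adjusted p = 4.4e-06).

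**Figure D2:**
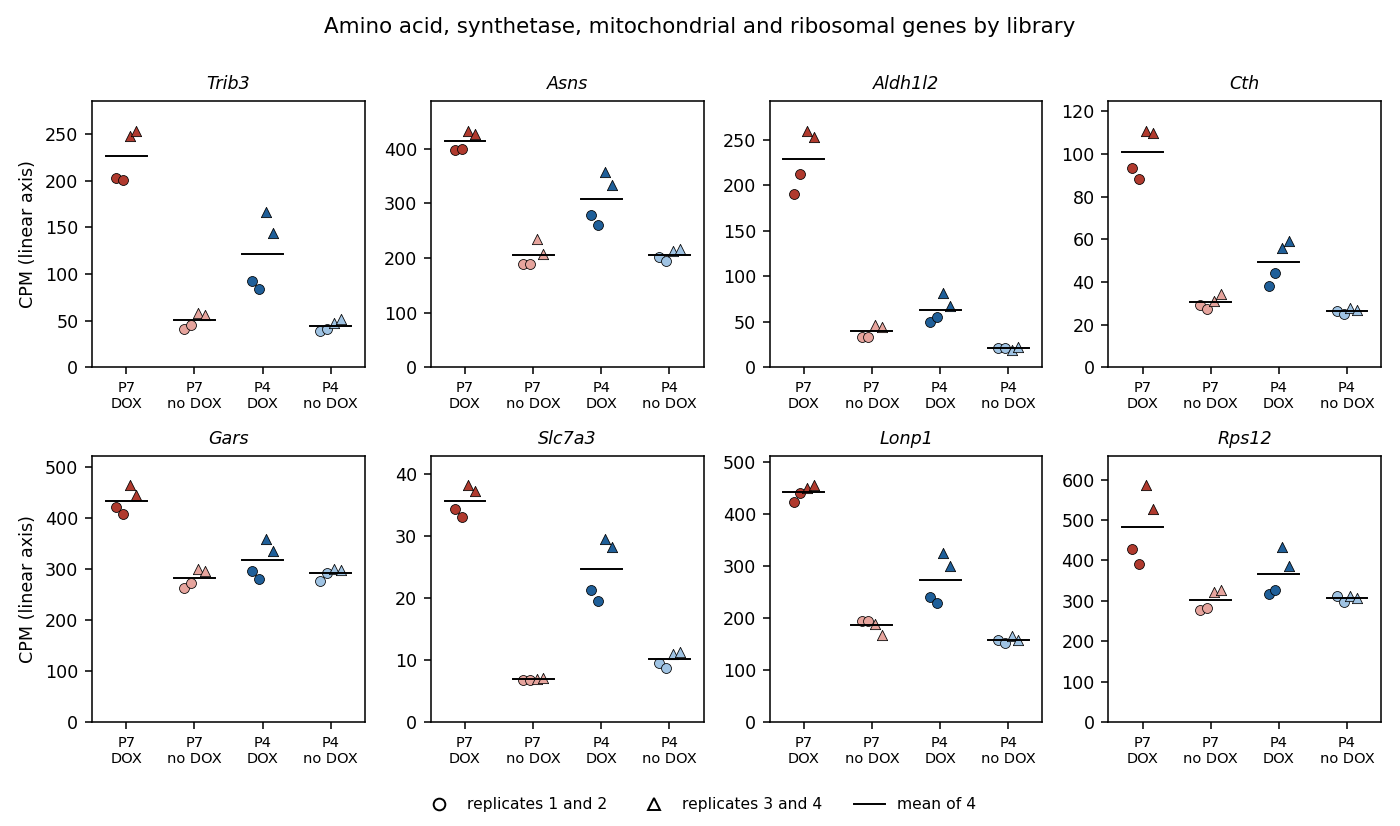
CPM in each library (linear axis from 0) of 8 genes in P7 cells with and without DOX (red and pale red) and P4 cells with and without DOX (blue and pale blue), with replicates 1 and 2 as circles, replicates 3 and 4 as triangles and the mean of 4 as a line. For Trib3, Asns, Aldh1l2, Cth, Gars, Slc7a3 and Lonp1 each P7 library with DOX lies above each P4 library with DOX, and for Rps12 the lowest P7 library with DOX (390 CPM) lies below the highest P4 library with DOX (434 CPM).

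Aminoacyl-tRNA synthetases, which charge tRNAs with their amino acids, gave 9 higher and 0 lower of 20 tested, and all 20 differences were positive. Their median response was 0.47 at P7 and 0.15 at P4. The median difference was 0.30 in replicates 1 and 2 and 0.16 in replicates 3 and 4. Gars, the glycyl enzyme, had 421, 407, 464 and 444 CPM at P7 with DOX and 262, 272, 300 and 295 CPM without. At P4 it had 295, 281, 359 and 336 CPM with DOX and 277, 292, 299 and 297 CPM without, so its P4 groups overlapped and its P7 groups did not. The difference was 0.50 (SE 0.06; edgeR adjusted p = 1.3e-05). Differences of the other 8 called members were 0.45 for Iars, 0.44 for Eprs, 0.41 for Lars, 0.36 for Yars, 0.32 for Rars, 0.31 for Nars, 0.28 for Aars and 0.24 for Tars. Wars and Sars were not called although they rose at both passages, Wars by 1.14 at P7 and 1.12 at P4 and Sars by 0.73 and 0.55. The count without the set term was 4, and 4 in replicates 3 and 4 alone.

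Mitochondrial chaperones and proteases gave 4 higher and 0 lower of 17 tested. Hspa9, the matrix HSP70, responded by 0.96 at P7 and 0.53 at P4 (difference 0.43, SE 0.07; edgeR adjusted p = 0.00038). Lonp1, the matrix protease, had 422, 441, 450 and 455 CPM at P7 with DOX and 195, 195, 189 and 168 CPM without, against 240, 229, 324 and 299 CPM at P4 with DOX and 158, 151, 165 and 157 CPM without. Its groups did not overlap and its difference was 0.46 (SE 0.11; edgeR adjusted p = 0.020), which became 0.053 without the P4 no DOX replicate 1 library. The co-chaperone Dnaja3 differed by 0.35 and the matrix chaperonin Hspd1 by 0.24 (edgeR adjusted p = 0.0014 and 0.029). The call of Hspd1 was lost in 9 of the 16 fits that left out 1 library (edgeR adjusted p up to 0.078). The count was 2 without the P4 no DOX replicate 1 library and 2 without the set term. Chchd10, a small protein of the mitochondrial intermembrane space, was not on that list. It responded by 1.69 at P7 and 0.98 at P4 (difference 0.71, SE 0.09; edgeR adjusted p = 5.3e-06). Its exons overlap those of Mmp11 and Gm867 on the other strand, which had differences of 0.39 and 0.95 and were called too.

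Cytosolic ribosomal protein genes gave 10 higher and 0 lower of 74 tested. All 74 differences were positive, from 0.10 to 0.43 on the log2 scale with a median of 0.20. The list rose at both passages, with a median of 0.43 at P7 and 0.24 at P4. Rps12 had 428, 390, 586 and 528 CPM at P7 with DOX and 276, 282, 321 and 327 CPM without, against 318, 326, 434 and 385 CPM at P4 with DOX and 311, 296, 313 and 307 CPM without. Replicates 3 and 4 were above replicates 1 and 2 in both DOX groups. Its difference was 0.43 (SE 0.09; edgeR adjusted p = 0.0076). The count moved widely, from 2 without the P7 DOX replicate 3, P7 no DOX replicate 4, P4 DOX replicate 1, P4 no DOX replicate 1 or P4 no DOX replicate 2 library to 29 without the P4 DOX replicate 3 library, and it was 0 without the set term. The other moved counts were 3 without P7 DOX replicate 4, 4 without P7 no DOX replicate 1 or P4 DOX replicate 4, 16 without P4 no DOX replicate 3, 22 without P4 no DOX replicate 4 and 23 without P7 DOX replicate 2. Ribosomal protein genes have near-identical pseudogene copies, so their counts may be shared. Mitochondrial ribosomal proteins gave 0 calls of 58 by edgeR, DESeq2 and voom, with 4 at an unadjusted p below 0.05 and a median difference of 0.09.

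Interferon-stimulated genes formed the list with the most members in the lower direction. Of 47 tested members 18 had a lower response at P7 and 0 a higher one, and all 47 differences were negative, with a median of -0.42. The median response was -0.20 at P7 and 0.17 at P4. At P7, 22 members fell with DOX and 1 rose, and at P4, 5 fell and 14 rose. Levels differed between the 2 replicate sets, and 0 members were called without the set term. The median difference was -0.39 in replicates 1 and 2 and -0.42 in replicates 3 and 4. The count was 12 without the P7 DOX replicate 1 library and 24 without P7 DOX replicate 2.

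Gbp2, an interferon-induced guanylate-binding protein, had 262, 282, 152 and 136 CPM at P7 with DOX and 450, 428, 194 and 215 CPM without. Its P4 libraries had 807, 846, 437 and 448 CPM with DOX and 642, 743, 401 and 330 CPM without. Within each set, DOX libraries were lower than those without at P7 and higher at P4, while across sets the groups overlapped. The response was -0.60 at P7 and 0.26 at P4, a difference of -0.86 (SE 0.09; edgeR adjusted p = 1.4e-06). The difference was -0.94 in replicates 1 and 2 and -0.78 in replicates 3 and 4. The microRNA gene Mir6381 lies over an exon of Gbp2 on the other strand and was called the same way.

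The immunity-related GTPases Iigp1, Igtp and Irgm1, which act on vacuoles of intracellular microbes, fell at P7 with no call at P4. Iigp1 had 391, 427, 252 and 239 CPM at P7 with DOX and 635, 589, 402 and 405 CPM without, against 1080, 1060, 749 and 744 CPM at P4 with DOX and 1070, 1170, 779 and 705 CPM without. DOX libraries were lower than their set's libraries without DOX at P7, and those at P4 were mixed. The difference was -0.62 (SE 0.07; edgeR adjusted p = 3e-06). Igtp and Irgm1 differed by -0.52 and -0.49 (edgeR adjusted p = 0.00015 and 0.00016), and Irgm2, whose exons overlap those of Igtp, by -0.43.

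The tetratricopeptide protein Ifit3 fell at both passages. It had 97.4, 116, 75.7 and 56.4 CPM at P7 with DOX and 357, 279, 250 and 271 CPM without, against 319, 409, 251 and 257 CPM at P4 with DOX and 573, 629, 525 and 457 CPM without. Neither passage's groups overlapped, and the difference was -0.94 (SE 0.18; edgeR adjusted p = 0.011). Ifit3b, its near-identical neighbour, differed by -1.04. Oasl2, an oligoadenylate synthetase-like protein, differed by -0.79 (edgeR adjusted p = 0.047; 0.088 with replicate number as a block, 0.0017 to 0.24 over all alternatives, and lost in 12 of 16 fits that left out 1 library). Other called members were the guanylate-binding Gbp3 (-0.57), Gbp4 (-0.74), Gbp6 (-0.42) and Gbp7 (-0.53), the RNA sensors Ddx58 (-0.46) and Ifih1 (-0.35), Ifit2 (-0.34), Xaf1 (-0.46), Cmpk2 (-0.56) and Ifi35 (-0.29). Not called were Irf1 (-0.17), Isg15 (-0.42), Irf7 (-0.74) and Mx1 (-0.20).

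**Figure D3:**
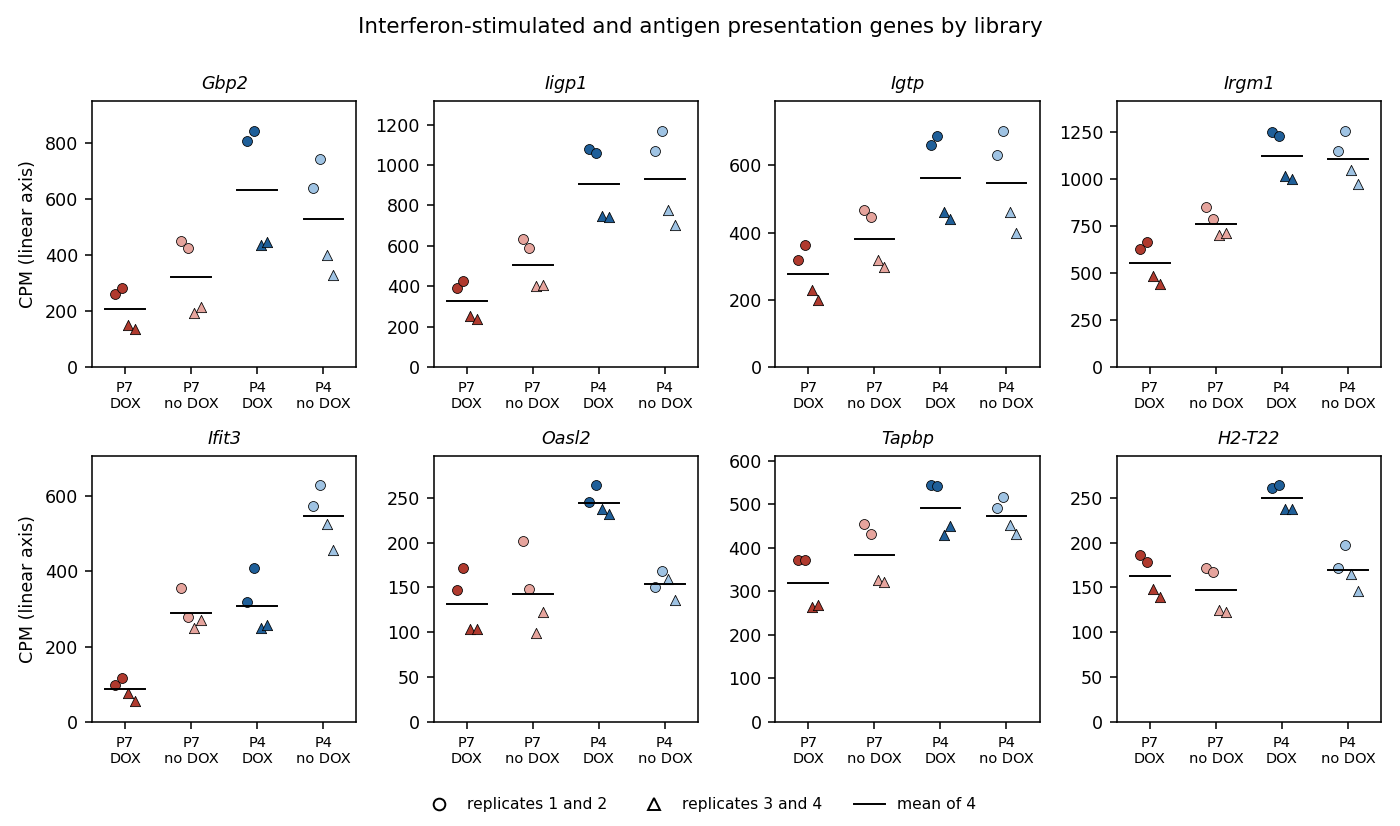
CPM in each library (linear axis from 0) of 8 interferon-stimulated and antigen presentation genes, with groups, colours and symbols as in the plot of amino acid genes. In Gbp2, Iigp1 and Igtp the circles (replicates 1 and 2) lie above the triangles (replicates 3 and 4) in every group, and within a symbol the DOX libraries lie below those without DOX at P7.

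Genes of antigen presentation gave 8 lower and 0 higher of 25 tested, with a median difference of -0.23. The list holds the MHC class I route and 5 class II genes (Ciita, Cd74, H2-Aa, H2-Ab1 and H2-Eb1), none of which was called. H2-T22, a nonclassical class I gene, had 186, 178, 148 and 139 CPM at P7 with DOX and 172, 167, 125 and 123 CPM without, against 261, 264, 238 and 237 CPM at P4 with DOX and 172, 197, 165 and 146 CPM without. The P4 groups did not overlap and the P7 groups did. The difference was -0.41 (SE 0.08; edgeR adjusted p = 0.0021). Tapbp, the tapasin that loads peptides, differed by -0.32, and Tap1, a peptide transporter subunit, by -0.27. Nlrc5, the transactivator of class I genes, differed by -0.32 and H2-T23 by -0.34. H2-Q7 and H2-Q6 (-0.33 and -0.32) are near copies whose reads may be shared. Tapbp overlaps the antisense gene Gm19412, which was called the same way. The count was 4 without the P7 DOX replicate 4 or P4 no DOX replicate 1 library, 5 without P7 no DOX replicate 1, P4 DOX replicate 4, P4 no DOX replicate 2 or P4 no DOX replicate 4, and 0 without the set term. The summed leukocyte markers were 114 to 128 CPM at P7 with DOX, 194 to 209 CPM at P7 without, 123 to 166 CPM at P4 with DOX and 170 to 189 CPM at P4 without. Most of the sum was Cd14, Csf1r and Cd68, while Adgre1 and Itgam had no count in any library, and the part of these markers in the result was not tested.

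Chemokines and NF-kB genes gave 2 lower (7.41%) and 1 higher (3.7%) of 27 tested, against 3.15% and 2.21% of all tested genes. Calls were few, so the genes are described one by one. Cxcl5, a neutrophil attractant, had 1.5, 0.705, 0.749 and 1.21 CPM at P7 with DOX and 7.54, 10.4, 6.18 and 7.92 CPM without, against 6.51, 5.12, 5.42 and 6.6 CPM at P4 with DOX and 14.8, 13, 16 and 18.7 CPM without. It fell at both passages with no overlap of groups, and the difference was -1.57 (SE 0.29; edgeR adjusted p = 0.0011). Ccl2, which attracts monocytes, differed by -1.59 (SE 0.35; edgeR adjusted p = 0.010) and fell at P7 with no call at P4. Lcn2, the iron-sequestering lipocalin of injured tubules, differed by 0.34 (edgeR adjusted p = 0.012), with 1750 to 2590 CPM at P7 with DOX and 1120 to 1840 CPM at P4 with DOX. Leaving out P4 DOX replicate 3 or P4 no DOX replicate 4 gave 2 higher members, and without the set term there were 0.

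Basement membrane and matrix genes gave 5 higher (15.2%) and 1 lower (3.03%) of 33 tested, against 2.21% and 3.15% of all tested genes. Fn1, fibronectin, had 1120, 1280, 956 and 987 CPM at P7 with DOX and 1640, 1670, 1300 and 1360 CPM without. At P4 it had 668, 671, 663 and 720 CPM with DOX and 1850, 1670, 1350 and 1760 CPM without. The groups without DOX overlapped between passages, while all P4 libraries with DOX were below all P7 libraries with DOX. Fn1 fell by 0.46 at P7 and by 1.28 at P4, a difference of 0.82 (SE 0.12; edgeR adjusted p = 0.00035). The antisense gene Apol7d overlaps it and was called the same way.

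The collagen IV chains split by pair. Col4a1 and Col4a2, which share a promoter and form the common network of basement membranes, fell less at P7. Col4a2 had 9.51, 8.24, 8.74 and 10.7 CPM at P7 with DOX and 18.3, 18.0, 13.2 and 12.7 CPM without, against 5.43, 4.29, 5.16 and 6.43 CPM at P4 with DOX and 25.3, 18.2, 19.3 and 18.8 CPM without. Its difference was 1.21 (SE 0.20; edgeR adjusted p = 0.00043). That of Col4a1 was 0.94 (edgeR adjusted p = 0.029; 0.052 with replicate number as a block, 5.3e-09 to 0.13 over all alternatives, and lost in 8 of 16 fits that left out 1 library), and exons of the 2 genes overlap on opposite strands. Col4a3 and Col4a4, chains of the mature glomerular and tubular network, rose at P7 with no call at P4. Col4a3 had 52.7, 61.7, 58.3 and 62.8 CPM at P7 with DOX and 39.3, 42.4, 38.4 and 37.3 CPM without, against 37.1, 40.7, 45.6 and 43.5 CPM at P4 with DOX and 47.3, 45.9, 42.2 and 45.6 CPM without. Its P7 groups did not overlap and its P4 groups did, and the difference was 0.70 (SE 0.10; edgeR adjusted p = 3.7e-05). Col4a4 differed by 0.41 (edgeR adjusted p = 0.0032). The lower member was Spp1, osteopontin, which fell by 1.27 at P7 and by 0.58 at P4 (difference -0.69; edgeR adjusted p = 0.021). Its edgeR adjusted p was 0.053 without the P4 no DOX replicate 2 library, and leaving out P4 DOX replicate 2 gave 2 lower members. Without the set term 3 members were higher and 0 lower.

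Genes of TGF-beta and BMP signalling moved in both directions, with 5 higher and 7 lower of 39 tested. The latent TGF-beta binding proteins Ltbp1 (0.29) and Ltbp2 (0.90), the activin subunit Inhba (0.62) and the follistatin-like Fstl1 (1.20) were among the higher members. Fstl1 differed by 1.57 in replicates 1 and 2 and by 0.58 in replicates 3 and 4. Itgb6, the integrin subunit that activates latent TGF-beta, fell by 0.19 at P7 and by 0.90 at P4 (difference 0.71, SE 0.08; edgeR adjusted p = 2.1e-06).

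The lower members of that list were the receptors Tgfbr2 (-0.44) and Tgfbr3 (-0.69), the decoy receptor Bambi (-1.63), the ligand Bmp3 (-1.83), the activin antagonist Fst (-0.68) and the BMP targets Id3 (-0.54) and Id4 (-1.04). Id3 had 35.3, 35.1, 49.4 and 50.3 CPM at P7 with DOX and 65.5, 72.1, 98.3 and 92.4 CPM without, against 30.1, 34.3, 44.8 and 41.0 CPM at P4 with DOX and 40.3, 41.0, 62.9 and 57.0 CPM without. It fell at both passages, more at P7 in both sets (edgeR adjusted p = 0.00015). Bmp3 was called (edgeR adjusted p = 0.035; 0.055 with replicate number as a block, and 0.00077 to 0.070 over all alternatives). At P4 its replicates 1 and 2 had 26.7 and 41.8 CPM with DOX and 21.6 and 21.3 CPM without. Its replicates 3 and 4 had 11.3 and 15.2 CPM with DOX and 18.2 and 21 CPM without. Bambi lay at 0.352 to 1.76 CPM over all 16 libraries, so its values rest on few reads. It differed by -2.55 in replicates 1 and 2 and by -1.01 in replicates 3 and 4. Of the 16 fits that left out 1 library, 11 lost the call of Bambi and 9 that of Bmp3 (edgeR adjusted p up to 0.092 and 0.082). The count was 3 higher without P7 DOX replicate 1, and 4 lower without P7 DOX replicate 3 or P4 no DOX replicate 1. It was 1 in each direction without the set term.

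Cholesterol synthesis and other SREBP2 targets gave 5 higher and 0 lower of 26 tested. The list fell at both passages, by a median of 0.43 at P7 and of 0.57 at P4. Sqle, squalene epoxidase, had 117, 109, 115 and 111 CPM at P7 with DOX and 129, 140, 136 and 129 CPM without, against 67.2, 56.6, 63.7 and 61.0 CPM at P4 with DOX and 102, 104, 104 and 94.4 CPM without. Groups were apart at both passages and the fall was smaller at P7 (difference 0.46, SE 0.07; edgeR adjusted p = 0.00024). Idi1 (0.59), Lss (0.41) and Msmo1 (0.31), enzymes of the same route, were also higher. The count was 3, and Msmo1 was not called (edgeR adjusted p = 0.057 to 0.076), without P7 DOX replicate 4, P7 no DOX replicate 4, P4 DOX replicate 1, P4 DOX replicate 2, P4 no DOX replicate 1 or P4 no DOX replicate 2. It was 2 without the set term.

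The cadherins Cdh6, Cdh13 and Cdh16 fell at P7 and rose at P4, while the other 3 tested on the list, Cdh1 (-0.13), Cdh2 (0.04) and Cdh3 (0.10), were not called. Cdh6, K-cadherin, had 106, 105, 103 and 106 CPM at P7 with DOX and 134, 158, 143 and 151 CPM without, against 209, 188, 173 and 208 CPM at P4 with DOX and 152, 155, 152 and 168 CPM without. Groups did not overlap at either passage, and the difference was -0.79 (SE 0.08; edgeR adjusted p = 9.4e-07). Cdh13, the GPI-anchored T-cadherin, had 27.4, 30.1, 21.9 and 26.8 CPM at P7 with DOX and 35.0, 42.5, 32.2 and 36.3 CPM without, against 40.2, 34.3, 34 and 31.3 CPM at P4 with DOX and 23.1, 22.4, 23.6 and 21.8 CPM without. Here too the groups were apart at both passages, in opposite directions (difference -1.07, SE 0.12; edgeR adjusted p = 1.4e-06). Cdh16, the kidney-specific cadherin, fell by 0.43 at P7 and rose by 0.17 at P4 (difference -0.60, SE 0.07; edgeR adjusted p = 8.7e-06). With Cldn1 (-0.39) and Cldn19 (-0.71) they made 5 lower of 25 tested junction and cadherin genes, and Cldn12 (0.24) was the 1 higher. The call of Cldn12 was lost with replicate number as a block and in 11 of the 16 fits that left out 1 library, namely all but those without P7 DOX replicate 2, P7 no DOX replicate 3, P4 DOX replicate 4, P4 no DOX replicate 3 or P4 no DOX replicate 4. Cldn1 differed by -0.13 in replicates 1 and 2 and by -0.65 in replicates 3 and 4. Without the set term 3 genes of the list were lower and 0 higher.

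Of 24 sodium and water transport genes 3 were lower (12.5%, against 3.15% of all tested genes) and 0 higher. All 3 regulate aldosterone-dependent transport. Nr3c2, the mineralocorticoid receptor, had 43.2, 45.8, 37.2 and 36.6 CPM at P7 with DOX and 57.4, 57.6, 52.9 and 54.4 CPM without, against 66.4, 69.8, 50.4 and 52.5 CPM at P4 with DOX and 53.2, 59.7, 53.7 and 51.3 CPM without. It fell at P7 with no overlap and was not called at P4, where the groups overlapped (difference -0.58, SE 0.09; edgeR adjusted p = 0.00015). Hsd11b2, which protects that receptor from glucocorticoids, differed by -0.95 (SE 0.18; edgeR adjusted p = 0.0015). Nedd4l, the ubiquitin ligase of the epithelial sodium channel, differed by -0.32 (edgeR adjusted p = 0.0054). The count was 1 without the set term. The glucose carrier Slc5a1, on no list here, differed by -1.65, fell at P7 and was not called at P4, where the sets parted. At P4 replicates 1 and 2 had 7.13 and 9.05 CPM with DOX and 7.63 and 6.65 CPM without. Replicates 3 and 4 had 4.3 and 4.1 CPM with DOX and 7.92 and 7.03 CPM without. Its difference was -2.18 in replicates 1 and 2 and -0.995 in replicates 3 and 4.

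**Figure D4:**
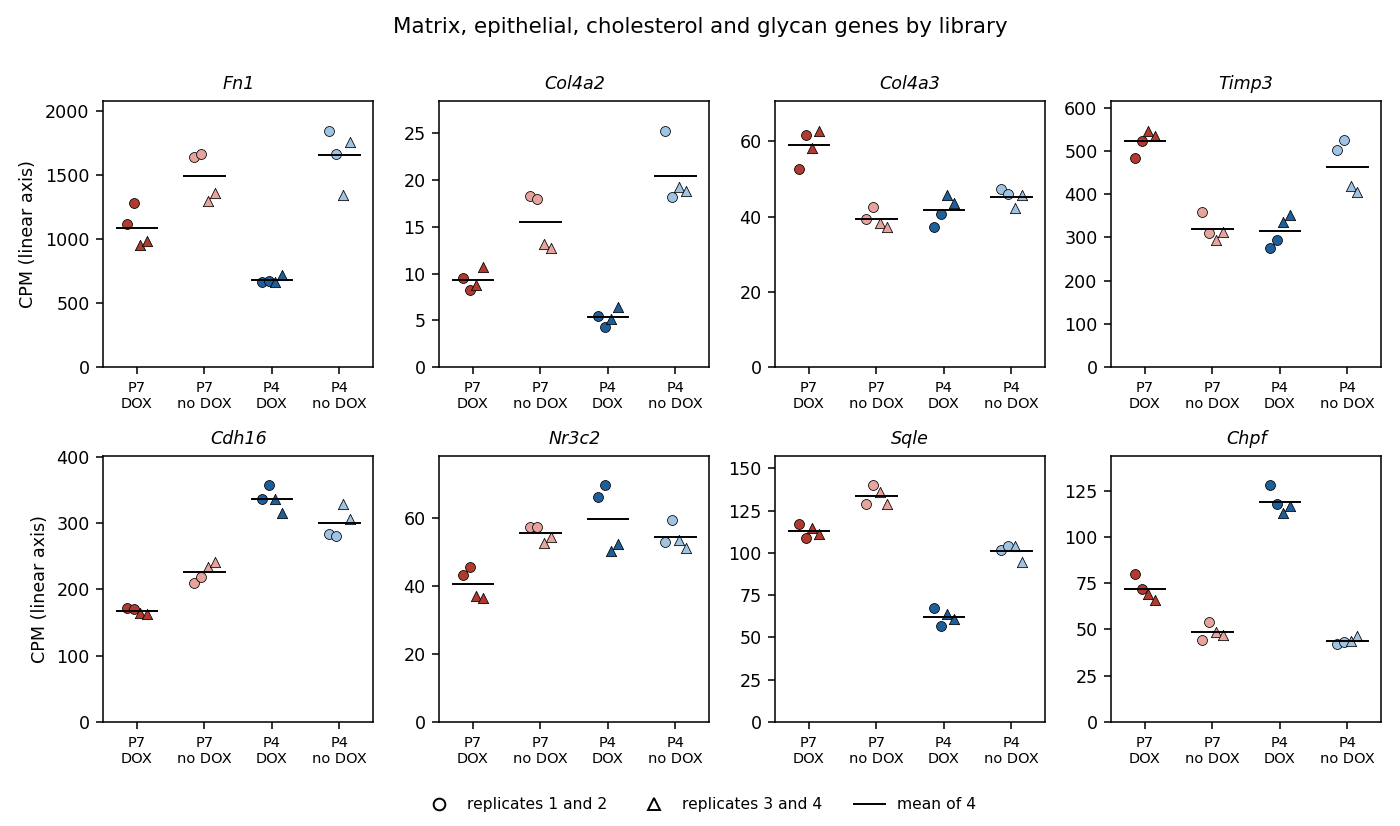
CPM in each library (linear axis from 0) of 8 matrix, epithelial, cholesterol and glycan genes, with groups, colours and symbols as in the plot of amino acid genes. Fn1, Col4a2 and Sqle have their lowest level at P4 with DOX, Timp3 is higher with DOX than without at P7 and lower with DOX than without at P4, Cdh16 and Nr3c2 their lowest at P7 with DOX, Col4a3 its highest at P7 with DOX and Chpf its highest at P4 with DOX.

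Among genes of cystic kidney disease 3 were lower (10.3%, against 3.15% of all tested genes) and 0 higher of 29 tested. Glis2, a transcription factor mutated in nephronophthisis, had 207, 217, 189 and 194 CPM at P7 with DOX and 158, 150, 141 and 135 CPM without, against 225, 209, 190 and 201 CPM at P4 with DOX and 105, 101, 98.5 and 89.4 CPM without. The DOX groups overlapped between passages and those without DOX did not (difference -0.60, SE 0.06; edgeR adjusted p = 8.3e-07). Cys1, which encodes the ciliary protein cystin, fell by 1.02 at P7 and was not called at P4 (difference -1.20, SE 0.25; edgeR adjusted p = 0.012). At P4 its replicates 1 and 2 had 30.9 and 37.7 CPM with DOX and 22.9 and 22.7 CPM without. Its replicates 3 and 4 had 18.1 and 17 CPM with DOX and 23.3 and 20.5 CPM without. The count was 5 lower and 1 higher without P4 DOX replicate 3. Calcium and cyclic AMP signalling, often studied downstream of polycystin-2, had 0 calls of 38 tested by edgeR and a median difference of -0.003. Of these 38 genes 6 had an unadjusted p below 0.05, DESeq2 called 1 and voom called 0.

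Clock genes gave 3 lower (16.7%) and 2 higher (11.1%) of 18 tested, against 3.15% and 2.21% of all tested genes. Nr1d1, the repressor REV-ERB alpha, had 35.1, 45.4, 33.3 and 39.3 CPM at P7 with DOX and 35.1, 28.8, 29.3 and 29.3 CPM without, against 29.9, 30.0, 25.1 and 29.8 CPM at P4 with DOX and 10.5, 11.2, 16.3 and 12.6 CPM without. Its P4 groups were well apart and its P7 groups overlapped (difference -0.85, SE 0.17; edgeR adjusted p = 0.0043). Its exons overlap those of Thra on the other strand. Nr1d2 and Clock differed by -0.30 and -0.32, and Nfil3 and Arntl by 0.67 and 0.42. The call of Nr1d2 was lost without P7 no DOX replicate 4 (edgeR adjusted p = 0.061), P4 DOX replicate 1 (0.053) or P4 no DOX replicate 2 (0.055). The time of harvest is not given, and its part was not tested. The count was 1 higher without P7 DOX replicate 4, P7 no DOX replicate 1, P4 DOX replicate 4, P4 no DOX replicate 1 or P4 no DOX replicate 2, and 5 lower without P4 DOX replicate 3 or P4 no DOX replicate 3. Clock genes without the set term gave 1 lower and 0 higher.

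Of the polyamine genes, 3 of synthesis and Sat1 were higher at P7, while Aoc1, which is on no list, was lower. Sat1, the acetyltransferase that starts polyamine breakdown, had the smallest adjusted p of all genes with a higher response. It had 338, 345, 383 and 379 CPM at P7 with DOX and 176, 158, 155 and 170 CPM without, against 175, 188, 191 and 189 CPM at P4 with DOX and 132, 136, 149 and 143 CPM without. DOX and no DOX libraries were apart at both passages, and the response was 1.13 at P7 and 0.41 at P4 (difference 0.72, SE 0.07; edgeR adjusted p = 4.9e-07). The synthesis genes Odc1 (0.34), Amd1 (0.39) and Srm (0.41) were also higher, which made 4 higher of 33 polyamine and glutathione genes. The glutathione transferase Gsto1 was the 1 lower (-0.50; edgeR adjusted p = 0.00020), and without P4 DOX replicate 3 or P4 no DOX replicate 3 there were 2. Without the set term 2 members of that list were higher. Aoc1, the diamine oxidase that degrades putrescine, had the largest lower difference of the named genes. It had 2.38, 1.90, 1.93 and 2.67 CPM at P7 with DOX and 33.3, 46.0, 27.6 and 42.3 CPM without, against 8.06, 9.23, 6.19 and 4.66 CPM at P4 with DOX and 22.5, 18.8, 21.8 and 19.5 CPM without. No groups overlapped, and it fell by 4.05 at P7 and by 1.54 at P4 on the log2 scale (difference -2.51, SE 0.28; edgeR adjusted p = 3.7e-05).

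Retinoic acid genes gave 4 lower and 0 higher of 14 tested. Rdh10 and Aldh1a2, which make retinoic acid in consecutive steps, differed by -0.47 and -0.58, and both fell at both passages. Their differences rested on replicates 3 and 4, with -0.14 and -0.80 for Rdh10 and -0.33 and -0.83 for Aldh1a2 in replicates 1 and 2 and in replicates 3 and 4. The call of Aldh1a2 was lost without P7 DOX replicate 3 (edgeR adjusted p = 0.06) or P7 DOX replicate 4 (0.053). The receptor Rarg differed by -0.35, and its call was lost without P4 no DOX replicate 1 (edgeR adjusted p = 0.052). Cyp26b1, which degrades retinoic acid, differed by -1.89 (edgeR adjusted p = 0.044; 0.056 with replicate number as a block, 0.0095 to 0.65 over all alternatives, and lost in 12 of 16 fits that left out 1 library). It had 0.317 to 0.874 CPM at P7 with DOX and 5.14 to 9.76 CPM without. At P4 it had 0.086 to 0.62 CPM with DOX and 0.666 to 1.82 CPM without, so its P4 response rests on few reads. The count was 2 without P7 DOX replicate 4 and 1 without the set term.

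Beyond the lists, the smallest adjusted p in the lower direction belonged to Sema3c, a secreted semaphorin. It had 1090, 1050, 888 and 848 CPM at P7 with DOX and 779, 821, 749 and 709 CPM without, against 1340, 1360, 1120 and 1110 CPM at P4 with DOX and 644, 645, 575 and 571 CPM without. It rose at both passages with no overlap, less at P7 (difference -0.68, SE 0.06; edgeR adjusted p = 3.9e-07). Chpf, which polymerises chondroitin chains, had 79.9, 72.0, 69.2 and 66.1 CPM at P7 with DOX and 44.2, 54.2, 48.4 and 46.8 CPM without, against 128, 118, 113 and 117 CPM at P4 with DOX and 41.9, 43.5, 43.9 and 46.4 CPM without. It likewise rose less at P7 (difference -0.87, SE 0.09; edgeR adjusted p = 6.3e-07). St3gal1, a sialyltransferase, fell by 0.44 at P7 and rose by 0.22 at P4 (difference -0.66, SE 0.07; edgeR adjusted p = 6.3e-07).

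The other lower genes with the smallest p were of mixed function. Pla2g7, which hydrolyses platelet-activating factor, and the keratin Krt20 rose at both passages, less at P7, with differences of -0.72 and -0.66. The antisense gene 1700071M16Rik overlaps Pla2g7 and was called the same way. Ptpn14, a phosphatase that restrains YAP, fell by 0.15 at P7 and rose by 0.43 at P4. Akap12, a scaffold for protein kinase A, had 1170, 1280, 1170 and 1140 CPM at P7 with DOX and 2020, 1860, 1820 and 1890 CPM without, against 1700, 1790, 1760 and 1880 CPM at P4 with DOX and 1860, 1820, 1950 and 2030 CPM without. Its fall at P7 had no counterpart called at P4, where the groups overlapped (difference -0.57, SE 0.07; edgeR adjusted p = 6.9e-06).

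Among higher genes outside the lists, Cdsn, corneodesmosin of cornified cell contacts, had 156, 165, 192 and 205 CPM at P7 with DOX and 13.5, 11.1, 12.5 and 10.8 CPM without. Its P4 libraries had 36.3, 34.8, 73.2 and 66.2 CPM with DOX and 11.6, 11.7, 14.3 and 16 CPM without. Levels without DOX overlapped between passages and those with DOX did not, and the response was 3.88 at P7 and 1.94 at P4 (difference 1.94, SE 0.24; edgeR adjusted p = 0.00039). Pkp1, a plakophilin of desmosomes, rose by 1.78 at P7 and was not called at P4 (difference 1.5, SE 0.29; edgeR adjusted p = 0.0016). Angptl6, an angiopoietin-like secreted protein, had 23.5, 27.7, 36.7 and 30.9 CPM at P7 with DOX and 4.44, 4.90, 4.98 and 5.52 CPM without, against 9.23, 11.3, 16.3 and 12.6 CPM at P4 with DOX and 5.39, 5.62, 8.99 and 7.58 CPM without (difference 1.73, SE 0.17; edgeR adjusted p = 6.3e-07). All groups of Angptl6 were apart within a passage.

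Htra1, a secreted serine protease, and Reep6, which shapes endoplasmic reticulum membranes, rose more at P7, with differences of 0.82 and 0.74 (edgeR adjusted p = 1.4e-06 and 6.3e-07). Col26a1, a collagen-like secreted protein, rose by 3.10 at P7 and 1.46 at P4 (difference 1.64, SE 0.39; edgeR adjusted p = 0.011; 0.062 without P4 no DOX replicate 1). Scara5, a ferritin receptor, had 5.64 to 7.67 CPM at P7 with DOX and 1.10 to 1.92 CPM without, but 0.0775 to 0.258 CPM at P4 with DOX and 0.148 to 0.332 CPM without. Its P4 response therefore rests on few reads, and its difference was 2.51 (SE 0.64; edgeR adjusted p = 0.019; 0.088 without P4 no DOX replicate 1 and 0.053 without P4 no DOX replicate 3). Timp3, an inhibitor of metalloproteinases, had 484, 523, 547 and 534 CPM at P7 with DOX and 358, 310, 295 and 313 CPM without, against 276, 295, 335 and 353 CPM at P4 with DOX and 503, 525, 418 and 406 CPM without. It rose at P7 and fell at P4 with no overlap (difference 1.26, SE 0.14; edgeR adjusted p = 8.1e-05). Syn3 lies over Timp3 on the other strand, its values ran parallel (difference 1.31), and reads may be shared between the 2 genes.

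Myo3b, an unconventional myosin, and Megf6, a protein with EGF-like repeats, fell more at P4 than at P7 or at P4 alone. Megf6 had 31.0, 30.2, 25.3 and 25.0 CPM at P7 with DOX and 28.6, 27.4, 27.4 and 23.9 CPM without, against 4.65, 5.12, 4.99 and 4.50 CPM at P4 with DOX and 11.9, 11.1, 11 and 9.30 CPM without. It was not called at P7, where the groups overlapped, and the difference was 1.22 (SE 0.13; edgeR adjusted p = 9.7e-07). Myo3b fell by 0.37 at P7 and by 1.59 at P4, also a difference of 1.22 (SE 0.12; edgeR adjusted p = 6.3e-07).

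Several low genes were among the largest lower differences. Tns4, a tensin of focal adhesions, had 11, 7.68, 7.11 and 7.17 CPM at P7 with DOX and 5.91, 8.54, 10.6 and 9.53 CPM without, against 4.42, 2.29, 5.50 and 2.41 CPM at P4 with DOX and 0.498, 1.03, 0.666 and 0.625 CPM without. It rose at P4 alone (difference -2.39, SE 0.45; edgeR adjusted p = 0.0036). The kinase Cdkl1 rose at P4 alone (-1.96), the kinesin Kif12 fell at P7 and rose at P4 (-1.75), and Thsd7b fell at both passages (-1.80). At P4 Kif12 had 33.2 and 31.9 CPM with DOX and 11.4 and 12.6 CPM without in replicates 1 and 2. In replicates 3 and 4 it had 29.1 and 30.9 CPM with DOX and 26.2 and 25.2 CPM without. Thsd7b had 0.19 to 1.15 CPM at P7 with DOX, so its P7 response rests on few reads. Havcr1, the kidney injury molecule, fell at both passages and differed by -1.03 at 0.440 to 7.03 CPM (edgeR adjusted p = 0.044; 0.062 with replicate number as a block, 0.032 to 0.39 over all alternatives, and lost in 11 of 16 fits that left out 1 library).

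**Figure D5:**
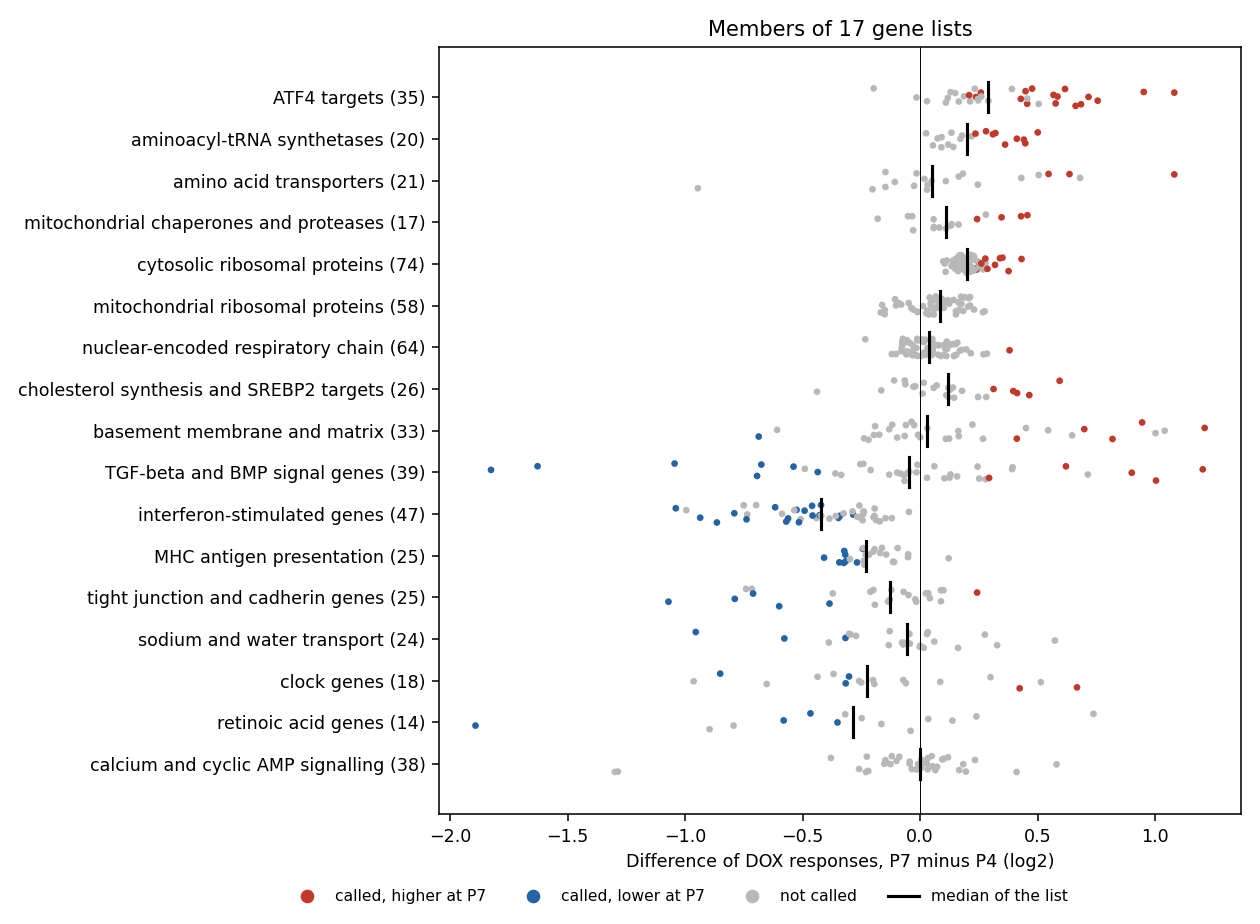
Difference of DOX responses (P7 minus P4, log2) of each tested member of 17 gene lists, with the number tested in brackets, red and blue for members called higher and lower at P7, grey for members not called and a bar at the list's median. All 74 cytosolic ribosomal proteins and all 20 synthetases lie right of 0, and all 47 interferon-stimulated genes lie left of 0.

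Adhesion and protease lists held members called in both directions, and the ion channel list held lower ones alone. Of all tested genes 2.21% were higher and 3.15% lower. Integrin and focal adhesion genes gave 5 lower and 2 higher of 28 tested. The lower ones were the integrin subunits Itga1 (-0.78), Itga3 (-0.28), Itga6 (-0.26) and Itgb4 (-0.36) and the tensin Tns4, while Itgb6 and the kindlin Fermt1 (0.28) were higher. Metalloproteinases and their inhibitors gave 3 higher and 2 lower of 21, with Adam12 at 0.70 and matrilysin, Mmp7, at -0.68. Epithelial serine proteases and their inhibitors gave 2 higher and 4 lower of 23, among the lower the transmembrane proteases Tmprss2 (-0.45) and Tmprss4 (-1.03). Chloride, bicarbonate and potassium transport genes gave 4 lower and 0 higher of 26, of which the potassium channel Kcnj16 fell by 0.98 at P7 and was not called at P4 (difference -0.93; edgeR adjusted p = 0.00019). Tubular injury markers gave 3 higher and 4 lower of 17, so that list had no common direction. YAP targets gave 2 higher and 3 lower of 23, and keratins 1 higher (Krt8, 0.31) and 2 lower (Krt4, -1.53, and Krt20) of 8.

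Most other lists had few calls, against a background of 2.21% higher and 3.15% lower. Genes of endoplasmic reticulum chaperones and of the unfolded protein response gave 2 higher (Sel1l, 0.32, and Atf6, 0.27) and 0 lower of 22. Heat shock genes gave 1 higher of 13 and glycolysis and hypoxia genes 2 higher of 36, among them the glucose carrier Slc2a1 (0.54). Wnt genes gave 2 higher and 1 lower of 26, p53 and senescence genes 2 and 1 of 24, zinc and iron genes 2 and 2 of 22, and S100 and annexin genes 1 and 1 of 20. Immediate early genes and mesenchymal transition markers gave 1 higher of 24 and 1 higher of 10. The EGF receptor family and its ligands gave 1 lower of 23 (Erbb2, -0.27), and cytochrome P450 and xenobiotic genes 2 lower of 19. The nuclear-encoded respiratory chain had 1 higher of 64 (Uqcrq, 0.38), and fatty acid synthesis and Notch genes had 0 of 18 and 0 of 12 by edgeR. In each of those 2 lists 2 members had an unadjusted p below 0.05, while voom called 1 fatty acid gene and DESeq2 called 0 in both. Cell cycle genes had 2 higher and 0 lower of 50, NRF2 targets 1 higher of 20, and lysosome genes 1 in each direction of 36. The genes of primary cilium transport had 4 higher and 1 lower of 46, among them the transport protein Ift172 (0.44). Of 41 nephric transcription factors and Hox genes 5 were lower and 0 higher, including Pax2 (-0.41) and Pax8 (-0.23). Genes encoded by mitochondrial DNA had 0 higher and 1 lower of 9, with a median response of 0.80 at P7 and 1.15 at P4, and mitochondrial transfer RNA genes had 0 of 9 by edgeR, DESeq2 and voom, with 1 at an unadjusted p below 0.05.

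The 2 replicate sets, which share no library, were also fitted separately. Of 832 genes called in replicates 1 and 2, 757 (91%) had the same sign in replicates 3 and 4, and 247 were called the same way there with 0 called the opposite way. Of 505 genes called in replicates 3 and 4, 480 (95%) had the same sign in replicates 1 and 2. Over 15109 genes 62.2% had the same sign in both sets. For 3 genes the difference itself differed between the sets: Rdh10, Chac1 and Mcc (0.0196% of genes tested). Mcc, named after its values were seen, differed by 0.93 in replicates 1 and 2 and by -0.54 in replicates 3 and 4.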

How the data were processed

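Per the labels' protocols, poly(A) RNA was made into strand-marking libraries, sequenced as 2 reads of 75 bp per fragment and aligned to GRCm38.p6 with STAR 2.6.0c. As deposited by the authors, the files hold raw counts per gene for 16 libraries and a TPM table. The counting tool and its strand setting are not given in the sources used here. The deposited TPM values served only to compare headers, of which 12 of 16 matched another count column best (10945 genes; best correlation at least 0.999, next at most 0.915).

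Genes were kept by filterByExpr (15316 of 55536; 25677 had no count), scaled by TMM and fitted by edgeR 4.0.16's robust quasi-likelihood test in R 4.3.3, with a mean per group and a replicate set term (11 residual degrees of freedom). CPM values are TMM-scaled. The set term lowered the biological coefficient of variation to 6%, against 10% with groups alone. DESeq2 1.42.0, voom in limma 3.58.1, other scalings, filters, blocks and leaving out each library were alternatives. Libraries of the same replicate number deviated together across groups (correlations 0.222 to 0.458, every pair above 0.1). Other numbers of the same set did so over a like range (0.226 to 0.500). Pairing by number thus cannot be told apart from the set. The main fit held the set term alone, and replicate number entered only as the block alternative.

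The comparison, the 47 gene lists and the 9 marker lists were chosen with earlier results of these data known. Named were, among called genes with a proper symbol and at least 5 CPM in the highest group, the 12 with the smallest adjusted p and the 8 with the largest difference in each direction, up to 4 members of each of 17 lists by adjusted p, and Pkd2 and Pkd1. Further list members and Mcc were named after their values were seen. Some genes of the rule and lists stay in the counts but are not reported here. Identifiers of all 55536 genes matched the GRCm38 annotation, and 10653 tested genes had a RefSeq promoter.

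On counts simulated for this comparison (15183 genes, 50 changed at each size), the test recovered 24% of 1.25-fold, 54% of 1.5-fold, 82% of 2-fold and 94% of 4-fold differences, and 4 of 131 calls (3.05%) were false. In these simulated counts, with changed genes drawn from all expression levels, a difference of 1.25-fold was thus mostly missed.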

Additional observations from a re-analysis of the deposited data

Results flagged for a closer look

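The responses of the 2 passages differed, by the test of the difference itself, for 339 genes higher at P7 and 482 lower, the subject of the report. For 3 genes that difference also differed between the replicate sets, among them Rdh10 (gap -0.66 on the log2 scale, replicates 3 and 4 minus replicates 1 and 2) and Chac1 (gap -0.83).

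Of 436 groups of 4 libraries, 18 had a library far from the other 3 in a gene singled out by the naming rule or afterwards, where chance gives about 1 in 20. At P7 with DOX these were replicate 1 for Pkp1 (22.8 CPM), Tns4 (11 CPM) and Mthfd2 (225 CPM), replicate 2 for Hspd1 (319 CPM) and replicate 4 for Cdkl1 (5.65 CPM). At P7 without DOX replicate 1 stood apart for Syn3 (139 CPM), Rps24 (337 CPM), Nr1d1 (35.1 CPM) and Havcr1 (3.55 CPM). At P4 with DOX they were replicate 1 for Nr1d2 (83.9 CPM), replicate 2 for Amd1 (47.3 CPM), replicate 3 for Nr1d1 (25.1 CPM) and replicate 4 for Fn1 (720 CPM). At P4 without DOX they were replicate 1 for Col4a2 (25.3 CPM), Col4a4 (92.9 CPM) and Psat1 (137 CPM), replicate 2 for Myo3b (23.8 CPM) and replicate 4 for Aldh1a2 (81.5 CPM).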

How the results depend on the processing

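Of the 109 genes recomputed one by one, none changed the sign of its difference under any alternative run; Mcc, which is not among them, had opposite signs in the 2 sets. Of 1306 values 1187 kept their side of the threshold, 109 lost the call and 10 gained it, and leaving out 1 library 1593 of 1744 kept it. The count of genes higher and lower at P7 (339 and 482) moved to 79 and 104 without the set term, all 183 of them among the 821, and to 700 and 904 with a mean for every group and set. It was 185 higher in replicates 3 and 4 alone and 523 higher with no filter on low counts. Leaving out 1 library gave 203 to 414 higher and 324 to 545 lower. With replicate number as a block 287 and 428 were called, 9 of 105 called named genes lost their call, and apart from the values given in the report the block changed no other call among these 105. Without the set term 52 of the 105 lost it. DESeq2 called 368 and 560, voom 340 and 476, RLE scaling 337 and 488, and library size alone 372 and 440; no scaling moved the median of all genes beyond 0.01. Pkd2's adjusted p (0.055) was 0.049 with RLE scaling, 0.046 with a mean of at least 1 CPM, 0.043 by DESeq2, 0.027 in replicates 1 and 2, 0.015 with no filter and 0.0013 with a mean for every group and set, and 0.26 without the set term. It was 0.058 by voom. By edgeR it was 0.06 with library size alone, 0.072 without chromosome M, 0.078 with the block and 0.13 in replicates 3 and 4. List counts without the set term stand beside the lists where they moved most. Smaller moves are not given there. Without that term Slc1a5 of the amino acid transporters (edgeR adjusted p = 0.26) and Cys1 of the cystic disease genes (0.078) lost their calls. Counts of lists other than the 17 described were not recomputed. The smallest difference called was 0.203 on the log2 scale, and 10 of 74 cytosolic ribosomal protein genes were called. Recovery of differences as small as theirs, at their counts, was not simulated.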
